A study of Mus musculus with 12 samples.

Results

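The transcripts of the EGF receptor family and its ligands were measured by RNA-seq in tumourspheres of mouse mammary cancer cells whose medium contained EGF. The set was defined by gene name, without a threshold on any measured value, and was chosen with earlier results of these data known. It held 3 receptors (Egfr, Erbb2 and Erbb3) and 5 ligands (Areg, Ereg, Hbegf, Tgfa and Btc). 7 of these 8 genes were among the 18278 genes listed for each of the 12 libraries. Ereg was not among them and is not analysed here. All 7 passed the filter on low counts and were tested.

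The receptors of this family are tyrosine kinases that span the cell membrane, and they signal as pairs. EGFR and ERBB3 bind ligands, whereas ERBB2 binds none and serves as the preferred partner of the others. ERBB3 has a weak kinase and mainly recruits PI3K once a partner has phosphorylated it. The ligands are made as membrane-anchored precursors that are cut at the cell surface, mostly by the protease ADAM17. Cells that release a ligand for their own receptor signal in an autocrine manner. In the mammary gland amphiregulin (Areg) is the EGFR ligand through which oestrogen drives duct growth, and ERBB2 is amplified in a class of breast cancers.

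The LM1 and LM9 lines were each established from a lung metastasis in NOD/SCID mice injected with HR1.PB cells. HR1.PB cells are an HR1 mammary cancer line in which a piggyBac transposon was mobilised to mutate genes at random, and HR1 itself came from a transgenic mouse that expresses an activated mutant of PIK3CA. By this description all 4 groups share that PI3K mutant and the transposon, and neither was tested in these libraries. The groups labelled LM1KO and LM9KO stand for LM1 Nfib KO and LM9 Nfib KO, pools of single-cell clones in which CRISPR-Cas9 was aimed at Nfib, which encodes the transcription factor NFIB. Each group had 3 libraries. All were grown as tumourspheres, clusters of cells in non-adherent plates, seeded at 10000 cells per mL and kept for 6 days without serum, with 20 ng/mL of EGF and of basic FGF. The labels do not say whether replicates were separate cultures, so the p-values may measure technical spread only.

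Library totals ran from 29249075 to 37162594 counts. Levels are given as CPM (counts-per-million values), with library sizes scaled by TMM, a method that sets the bulk of genes equal between libraries. The mRNA of Nfib, the targeted gene, was no lower in either knockout-labelled group. Its level was 218 ± 22.6 CPM in LM1, 235 ± 5.67 in the libraries labelled LM1KO, 154 ± 48.8 in LM9 and 240.0 ± 11.2 in the libraries labelled LM9KO (SD, n = 3). In LM9, replicate 1 was at 210 CPM and replicates 2 and 3 at 120 and 133 CPM. The counts cover all exons and do not show the targeted site. The study screened the clones by immunoblotting, and protein was not measured in these libraries. The library labelled LM9 replicate 1 stood apart from its group. Its correlation across genes was r = 0.9917 to 0.9922 to LM1 libraries, but r = 0.9639 to 0.9662 to its 2 fellow LM9 libraries. Most fold changes and counts of genes called that rest on LM9 are therefore given with and without it.

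The knockout-labelled libraries also differed from the parental ones in markers of cell type. All 5 luminal epithelial markers (Epcam, Cdh1, Krt8, Krt18 and Krt19) fell in both lines, with or without that library, and their summed level was 737 to 1327 CPM in the parental libraries and 0.931 to 1.11 CPM in the knockout-labelled ones. Cdh1, the epithelial cadherin, had 0 or 1 count in each knockout-labelled library. These libraries thus nearly lack the luminal markers that the parental libraries hold, and whether they hold derivatives of LM1 and LM9 was not tested. Of 5 mesenchymal markers in the files, 5 rose in the LM1 pair and 4 in the LM9 pair. Vim, the fifth, changed by 0.18 on the log2 scale there (limma-voom adjusted p = 0.328), and fell by 0.076 without LM9 replicate 1 (limma-voom adjusted p = 0.0133). The summed mesenchymal level went from 3155 to 5701 CPM in parental libraries to 6444 to 6700 CPM. Of 3 endothelial markers, Kdr and Cdh5 rose in both pairs with or without that library, with a summed level of 0.202 to 1.33 CPM in parental and 350 to 358 CPM in knockout-labelled libraries. Pecam1, the third, passed in neither pair (limma-voom adjusted p = 0.577 and 0.205) but fell by 1.89 in the LM9 pair without LM9 replicate 1 (limma-voom adjusted p = 1.66e-05). Of 3 basal markers, Krt14 and Krt17 rose in both pairs with or without that library. Krt17 was low, with 0 to 3 counts in parental and 11 to 20 in knockout-labelled libraries. The summed basal levels overlapped, at 0.443 to 19.1 CPM in parental and 6.78 to 7.63 CPM in knockout-labelled libraries. Trp63, the third, fell by 5.79 in the LM1 pair (limma-voom adjusted p = 0.00119) and did not pass in the LM9 pair (-1.49 and, without LM9 replicate 1, 1.01). It was at 17.9 CPM in LM9 replicate 1 and at 0.0403 and 0.276 CPM in replicates 2 and 3. Vim, Pecam1, Trp63 and the other 4 mesenchymal markers were named after their values were seen. Of 2 leukocyte markers Csf1r rose and Cd68 fell in both pairs, with or without that library. Csf1r shares 873 exon bases with Hmgxb3 on the opposite strand. The part of these marker shifts in the results below was not tested, and in bulk RNA fewer cells of a type and less RNA per cell cannot be told apart.

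Promoter sequence was available from the RefSeq table (GRCm38.p6, the assembly of mm10) for 5 of the 8 genes, Egfr, Erbb2, Areg, Tgfa and Btc. Windows from 250 bases before to 50 bases after the start of transcription were searched on both strands for 3 motifs. These were the single-arm NFI motif TTGGC, which NFI factors such as NFIB recognise, the full NFI site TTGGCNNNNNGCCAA, which holds the single-arm motif in each arm, and the AP-1 site TGANTCA. Tgfa and Egfr each held 1 single-arm motif, which began 60 and 141 bases before the start, and the other 3 genes held none. Neither the full NFI site nor the AP-1 site occurred in any of the 5 windows. Over all 32851 windows of this length, 46.7% held a single-arm motif, 0.0365% a full site and 7.81% an AP-1 site, so that motif is common. The 250 bases before the start are printed for Tgfa, Egfr and Erbb2, which respectively fell, stayed within a narrow interval and rose below. They are at chr6:86194972-86195221, chr11:16751953-16752202 and chr11:98412234-98412483, all on the plus strand, with the single-arm motif in capitals as it reads on that strand.
Tgfa: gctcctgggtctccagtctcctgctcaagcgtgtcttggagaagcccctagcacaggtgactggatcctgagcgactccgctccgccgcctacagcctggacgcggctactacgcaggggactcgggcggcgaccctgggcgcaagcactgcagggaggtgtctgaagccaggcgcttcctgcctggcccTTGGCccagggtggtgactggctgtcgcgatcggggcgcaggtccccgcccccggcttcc
Egfr: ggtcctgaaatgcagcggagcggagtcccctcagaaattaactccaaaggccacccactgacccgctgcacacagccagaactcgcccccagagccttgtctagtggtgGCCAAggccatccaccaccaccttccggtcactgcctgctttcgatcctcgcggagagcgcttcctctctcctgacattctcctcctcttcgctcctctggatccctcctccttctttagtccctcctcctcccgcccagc
Erbb2: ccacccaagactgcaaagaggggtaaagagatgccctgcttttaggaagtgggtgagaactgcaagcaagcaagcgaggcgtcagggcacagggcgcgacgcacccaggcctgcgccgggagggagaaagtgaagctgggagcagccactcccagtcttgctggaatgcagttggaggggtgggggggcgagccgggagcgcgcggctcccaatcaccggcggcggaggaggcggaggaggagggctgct

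The first comparison asked how receptors and ligands differed between the parental lines and the libraries labelled knockout, within each line. In the LM1 pair, 4 of 7 genes passed the test: Erbb2 and Btc rose, and Erbb3 and Tgfa fell. In the LM9 pair, 5 of 7 passed, the same 4 in the same directions and Hbegf, which fell. The test was limma-voom, two-sided, with Benjamini-Hochberg adjustment over all 18176 genes tested and a threshold of 0.05, and every adjusted p below comes from it unless another test is named. The counts have to be read against a background in which most genes differed. In the LM1 pair 81.2% of all genes passed, 43.1% higher and 38.1% lower in the knockout-labelled libraries. In the LM9 pair 82.3% passed, 44.3% higher and 38.0% lower. The shares of the family, 57.1% and 71.4%, lay below these backgrounds, and nothing is read from that for 7 genes. The median log2 fold change of the 7 genes was 0.12 in the LM1 pair and -0.57 in the LM9 pair, beside 0.08 and 0.13 over all genes. In the LM9 pair without LM9 replicate 1 the median was that of Areg, -1.29, beside 0.16 over all genes. Without LM9 replicate 1, 6 of 7 passed in each pair, beside a background of 88.6% in the LM1 pair and 88.9% in the LM9 pair. That library bears on the LM1 pair because all libraries share 1 estimate of the spread in this fit.

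**Figure D1:**
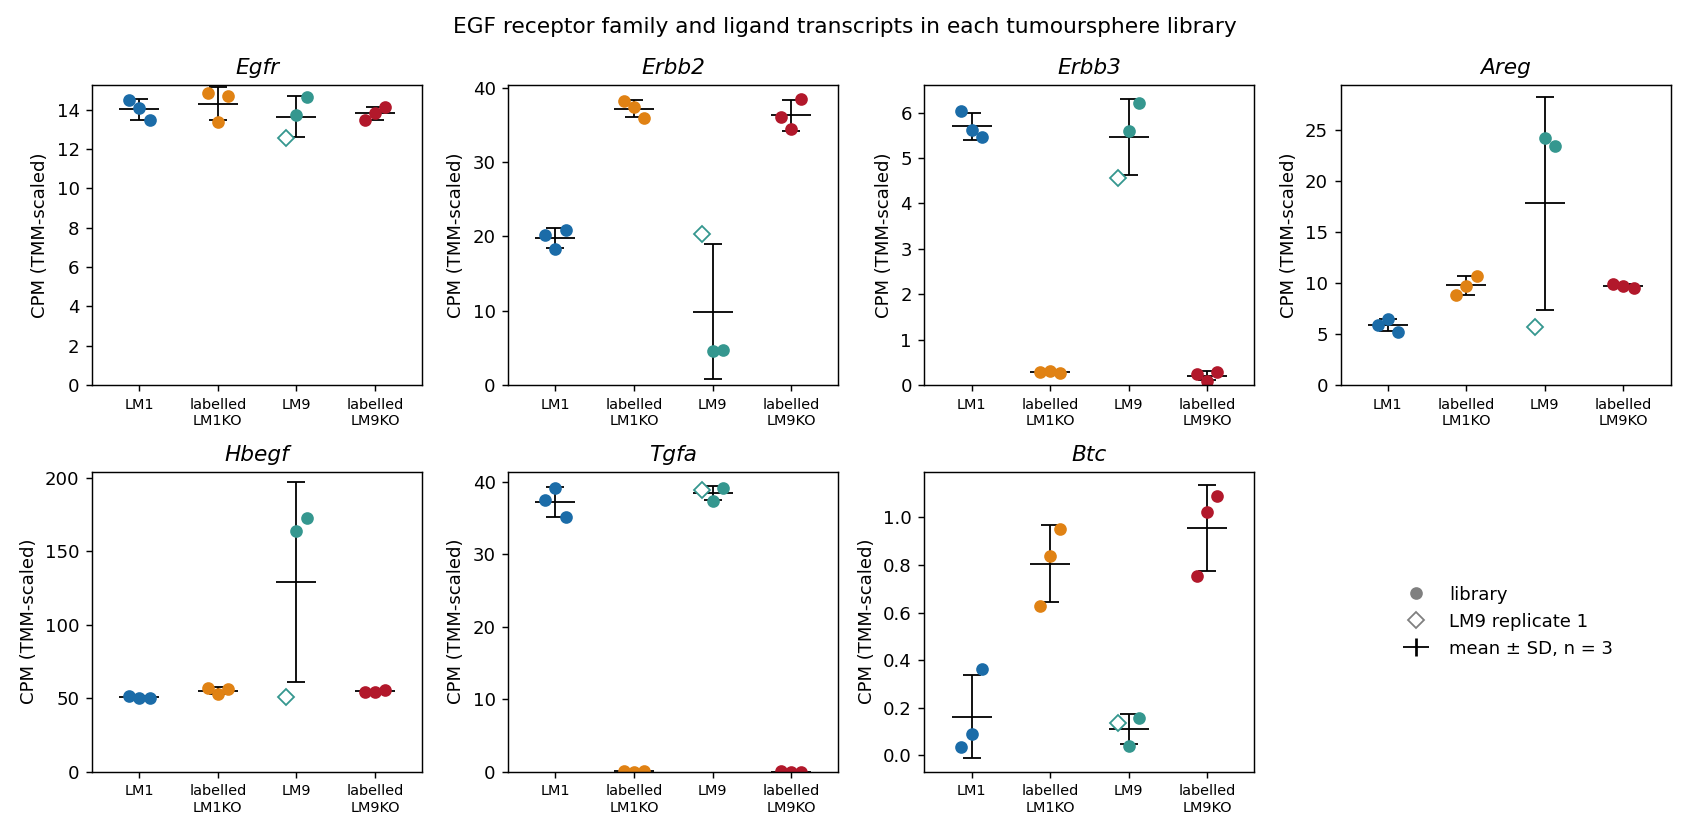
TMM-scaled CPM (linear axes from 0 or just below) of the 7 genes in each library, by group, with the mean and SD of the 3 libraries; the open diamond is the library labelled LM9 replicate 1. Egfr lies between 12.5 and 14.9 CPM throughout, Tgfa and Erbb3 are near 0 in the knockout-labelled groups, and for Erbb2, Areg and Hbegf the open diamond lies with the LM1 libraries.

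Egfr (ENSMUSG00000020122, chr11:16752203-16918158, plus strand, mm10) encodes the receptor that binds EGF, and all 5 ligands of the set bind it. It was at 14.5, 14.1 and 13.4 CPM in LM1 and at 14.9, 13.4 and 14.7 CPM in the libraries labelled LM1KO. In LM9 it was at 12.5, 13.7 and 14.6 CPM, against 13.5, 13.8 and 14.1 CPM in the libraries labelled LM9KO. All 4 groups overlapped. The log2 fold change was 0.03 in the LM1 pair (SE 0.08, adjusted p = 0.753), with a 95% interval on the fold of 0.903 to 1.15. In the LM9 pair it was 0.02 (SE 0.08, adjusted p = 0.797), with an interval of 0.898 to 1.15, and -0.04 without LM9 replicate 1.

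The Egfr result depends on the scaling. When libraries were scaled by their totals alone, the median of all genes moved from 0.08 to 0.31 in the LM1 pair and from 0.13 to 0.49 in the LM9 pair. Egfr then had log2 fold changes of 0.25 (limma-voom adjusted p = 0.00731) and 0.37 (adjusted p = 0.000597), which passed the test but lay below those medians. Over all alternatives the adjusted p of Egfr ran from 0.00731 to 0.972 in the LM1 pair and from 0.000597 to 0.931 in the LM9 pair.

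Erbb2 (ENSMUSG00000062312, chr11:98412470-98437716, plus strand), the receptor without a ligand, rose in the knockout-labelled libraries of both lines. It was at 20.2, 18.3 and 20.8 CPM in LM1 and at 38.2, 37.4 and 36.0 CPM in the libraries labelled LM1KO, with no overlap. The fold was 1.89 (log2 fold change 0.91, SE 0.30, adjusted p = 0.0157). This call was lost with the edgeR quasi-likelihood test (adjusted p = 0.0682) and without LM1 replicate 2 (limma-voom adjusted p = 0.0514), with the size of the change nearly the same. Its adjusted p ran from 9.59e-11 to 0.0682 over all alternatives.

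In LM9 the Erbb2 libraries split. Replicate 1, at 20.3 CPM, lay with LM1, and the others were at only 4.55 and 4.76 CPM. The libraries labelled LM9KO were at 36.0, 34.4 and 38.5 CPM, above every LM9 library. The log2 fold change was 2.20 (SE 0.37, adjusted p = 0.00018), and 2.96 (SE 0.12, adjusted p = 3.16e-13) without replicate 1, a fold of 7.77. Erbb2 shares 9 exon bases with Mien1 on the opposite strand, out of an exon length of 5210 bases.

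Erbb3 (ENSMUSG00000018166, chr10:128567523-128589652, minus strand), which encodes the PI3K-recruiting receptor, fell to a few counts per library. It was at 6.03, 5.61 and 5.46 CPM in LM1 and at 4.55, 5.60 and 6.22 CPM in LM9. The libraries labelled LM1KO were at 0.277, 0.314 and 0.264 CPM and those labelled LM9KO at 0.233, 0.0973 and 0.286 CPM. No knockout-labelled library came near a parental one, and LM9 replicate 1 did not stand apart in the same way as for Erbb2. The knockout-labelled libraries held 4 to 12 counts each, against 135 to 183 in the parental ones. The summed counts gave parental levels 20.0 times higher in the LM1 pair (exact 95% counting interval 14.1 to 29.4) and 26.6 times higher in the LM9 pair (17.7 to 42.0), or 29.1 times without LM9 replicate 1, and such intervals cover counting error only. The log2 fold changes were -4.26 (SE 0.28, adjusted p = 5.25e-08) and -4.76 (SE 0.30, adjusted p = 4.2e-08), the latter -4.89 without LM9 replicate 1.

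Tgfa (ENSMUSG00000029999, chr6:86195223-86275719, plus strand) encodes transforming growth factor alpha, an EGFR ligand, and showed the largest change of the 7 genes in both pairs. It was at 37.5, 39.1 and 35.1 CPM in LM1 and at 38.9, 37.3 and 39.1 CPM in LM9. In the knockout-labelled libraries almost no reads remained: 3, 1 and 5 counts in the LM1KO and 2, 1 and 1 counts in the LM9KO libraries, beside 926 to 1275 counts in the parental libraries. The parental level was 480 times higher in the LM1 pair (counting interval 253 to 1052) and 1136 times higher in the LM9 pair (443 to 4174), or 1129 times without LM9 replicate 1. The fitted log2 fold changes were -8.87 (SE 0.34, adjusted p = 5.32e-10) and -9.74 (SE 0.37, adjusted p = 6.08e-10), and at counts this low they depend on the offset that the fit adds. Without LM9 replicate 1 the second was -9.72.

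Btc (ENSMUSG00000082361, chr5:91357261-91402994, minus strand), which encodes betacellulin, a ligand of EGFR and ERBB4, was the least abundant member in the parental groups and rose. It had 1, 3 and 10 counts in LM1 and 25, 32 and 36 counts in the libraries labelled LM1KO. In LM9 it had 4, 1 and 4 counts, against 29, 42 and 42. The groups of each pair did not overlap, but even the higher libraries stayed at 0.629 to 1.09 CPM. The ratio of summed counts was 5.07 in the LM1 pair (counting interval 2.88 to 9.64) and 8.49 in the LM9 pair (4.32 to 19.0), or 9.61 without LM9 replicate 1. The log2 fold changes were 2.65 (SE 0.55, adjusted p = 0.000822) and 3.01 (SE 0.56, adjusted p = 0.000354), the latter 3.21 without LM9 replicate 1.

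Hbegf (ENSMUSG00000024486, chr18:36504927-36515805, minus strand) encodes heparin-binding EGF-like growth factor. It was at 51.6, 50.0 and 50.4 CPM in LM1 and at 56.6, 52.6 and 56.3 CPM in the libraries labelled LM1KO. These groups did not overlap, but the fitted change was small, with a log2 fold change of 0.12 (SE 0.37, adjusted p = 0.774) and a 95% interval on the fold of 0.616 to 1.92. Near the same value it passed without LM9 replicate 1 (0.13, adjusted p = 0.00945) and in the fit of those 2 groups alone (0.12, limma-voom adjusted p = 0.0134), within a range of 0.00945 to 0.834 over all alternatives. In LM9 replicate 1 was at 50.8 CPM and replicates 2 and 3 at 164 and 172 CPM, whereas the libraries labelled LM9KO were at 54.1, 54.5 and 55.9 CPM. The log2 fold change in the LM9 pair was -1.03 (SE 0.36, adjusted p = 0.0194), and -1.61 (SE 0.04, adjusted p = 3.95e-16) without replicate 1. With all 3 LM9 libraries the groups overlapped in range, and the call was lost with library totals (limma-voom adjusted p = 0.0688), in the fit of those 2 groups alone (limma-voom adjusted p = 0.0837), without LM9 replicate 2 (-0.75, limma-voom adjusted p = 0.0787) and without LM9 replicate 3 (-0.71, limma-voom adjusted p = 0.0838). Over all alternatives the adjusted p ran from 3.95e-16 to 0.0838.

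Areg (ENSMUSG00000029378, chr5:91139599-91148432, plus strand), the gene of amphiregulin, passed in neither pair with all libraries. It was at 5.92, 6.50 and 5.24 CPM in LM1 and at 8.86, 9.75 and 10.7 CPM in the libraries labelled LM1KO, with no overlap. The log2 fold change was 0.72 (SE 0.50, adjusted p = 0.197), and 0.72 (SE 0.09, adjusted p = 1.57e-06) without LM9 replicate 1. It also passed in the fit of those 2 groups alone (limma-voom adjusted p = 2.82e-05), within a range of 1.57e-06 to 0.327 over all alternatives. In LM9 it was at 5.73 CPM in replicate 1 and at 24.3 and 23.5 CPM in replicates 2 and 3, on both sides of the 9.88, 9.73 and 9.56 CPM of the libraries labelled LM9KO. The log2 fold change there was -0.57 (SE 0.43, adjusted p = 0.238), and -1.29 (SE 0.08, adjusted p = 4.5e-11) without replicate 1. DESeq2 with all libraries gave -0.89 with an adjusted p of 0.0331 in the LM9 pair, where the alternatives ranged from 4.5e-11 to 0.657.

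**Figure D2:**
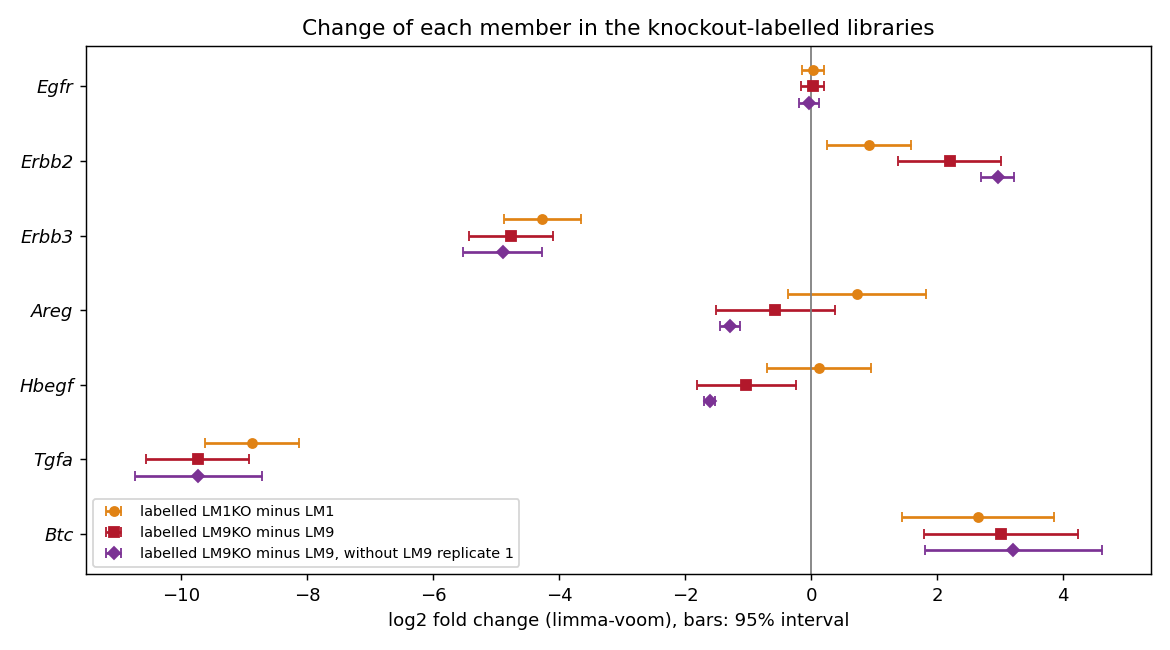
Fitted log2 fold change of each gene (horizontal axis, limma-voom, 95% interval) between knockout-labelled and parental libraries, for LM1, for LM9 and for LM9 without the library labelled LM9 replicate 1. Tgfa and Erbb3 lie far to the left in both lines, Egfr sits on 0, and Areg has estimates on opposite sides of 0 in the 2 lines.

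Because the lengths of these genes differ, levels between genes were compared as CPM per kb of exon. Among the 3 receptors, Erbb2 took 63.5% ± 1.96 of the summed level per kb in LM1, Egfr 20.7% ± 1.18 and Erbb3 15.8% ± 0.824 (SD, n = 3). In the libraries labelled LM1KO, Erbb2 took 84.5% ± 0.809, Egfr 14.9% ± 0.856 and Erbb3 0.561% ± 0.0516. The libraries labelled LM9KO had nearly the same make-up, with 84.7% ± 0.448 for Erbb2. In LM9 the replicates differed: Erbb2 took 67.7% in replicate 1 but 28.2% in replicate 3 and hardly more in replicate 2, where Egfr led with 39.9% and 40.2%. The summed receptor level was 5.98 ± 0.249 CPM per kb in LM1 and 8.45 ± 0.228 in the libraries labelled LM1KO, while LM9 replicates 2 and 3 were at 3.02 and 3.24 CPM per kb.

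Among the ligands, Hbegf led in every group on the same per-kb scale. It took 49.7% ± 2.00 in LM1 and 58.1% ± 2.64 in the libraries labelled LM1KO, and 54.9% ± 4.77 and 58.0% ± 0.704 in the LM9 pair. Tgfa was second in LM1 with 27.2% ± 0.499 and fell to 0.06% ± 0.0386 in the libraries labelled LM1KO, in which Areg was second with 40.9% ± 2.48. In LM9 replicates 2 and 3 Tgfa took 9.65% and 9.87%, because Hbegf and Areg were higher there while Tgfa was not. The summed ligand level per kb was 21.1 ± 0.778 in LM1, 19.7 ± 0.916 in the libraries labelled LM1KO and 19.6 ± 0.106 in those labelled LM9KO, and was 59.6 and 61.1 in LM9 replicates 2 and 3. With Tgfa nearly absent, the summed level of the knockout-labelled groups was thus close to that of LM1, and the sums were not tested. These shares are transcript shares, and secreted ligand was not measured.

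**Figure D3:**
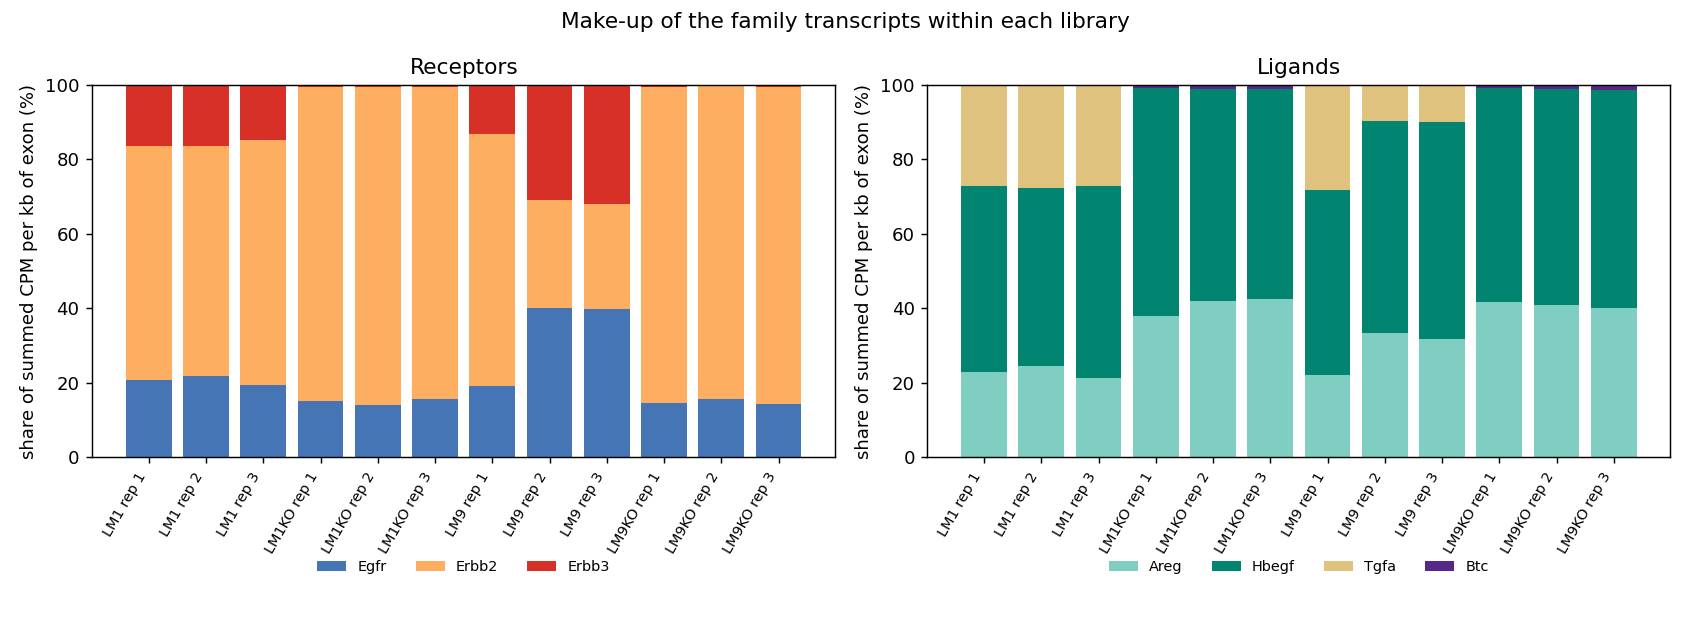
Share (%) of the summed CPM per kb of exon that each receptor (left) and each ligand (right) takes in each of the 12 libraries. Erbb3 and Tgfa almost vanish from the bars of the 6 knockout-labelled libraries (labelled KO), and LM9 rep 1 resembles the LM1 bars while LM9 rep 2 and 3 have small Erbb2 and Tgfa shares.

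The second comparison was between the 2 parental lines. With all libraries none of the 7 genes passed, and 1 of all 18176 genes did, a background of 0.00550%, although 8661 genes had an unadjusted limma-voom p under 0.05. The edgeR quasi-likelihood test also called 1 gene and DESeq2 called 5772. The estimates were 1.32 for Erbb2 (SE 0.39, adjusted p = 0.0543), -1.14 for Hbegf (SE 0.37, adjusted p = 0.0543) and -1.29 for Areg (SE 0.49, adjusted p = 0.0686), as log2 of LM1 over LM9. Without LM9 replicate 1, 3 of 7 passed beside a background of 65.7%. Erbb2 was then higher in LM1 by 2.08 (SE 0.13, adjusted p = 3.16e-10), Areg lower with -2.01 (SE 0.10, adjusted p = 1.29e-11) and Hbegf lower with -1.73 (SE 0.04, adjusted p = 8.28e-15). With all libraries, DESeq2 called Areg (-1.63, adjusted p = 0.00422) and Hbegf (-1.38, adjusted p = 0.00437), and scaling by library totals called Erbb2 (1.496, limma-voom adjusted p = 0.0466) and Hbegf (-1.02, limma-voom adjusted p = 0.0468). Under library totals 5226 of all 18176 genes passed. Over all alternatives the highest adjusted p was 0.211 for Erbb2 and Hbegf and 0.2204 for Areg. LM9 replicates 2 and 3 thus had less of the ligandless receptor and more of both of these ligands than LM1. Egfr, Erbb3 and Tgfa were close in the 2 lines with or without that library. Their 95% intervals on the fold of LM1 over LM9 were 0.907 to 1.17, 0.825 to 1.36 and 0.841 to 1.11 with all libraries. For Btc the interval, 0.384 to 3.06, is too wide to say more. With that library left out, the intervals on the log2 scale were -0.18 to 0.14 for Egfr, -0.32 to 0.21 for Erbb3, -0.17 to 0.09 for Tgfa and -1.36 to 1.97 for Btc.

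The third comparison was between the 2 knockout-labelled groups, which differed in none of the 7 genes and in none of all genes by limma-voom (0% of 18176), and in none by edgeR or DESeq2, while 178 genes had an unadjusted limma-voom p under 0.05. The estimates were 0.04 for Erbb2, 0.00 for Areg and 0.01 for Hbegf as log2 of LM1KO over LM9KO, with 95% intervals on the fold of 0.672 to 1.57, 0.517 to 1.94 and 0.577 to 1.75. Without LM9 replicate 1 these log2 intervals narrowed to -0.07 to 0.14, -0.16 to 0.16 and -0.08 to 0.09. The intervals of Tgfa (0.828 to 3.74) and Erbb3 (0.835 to 2.66) rest on few counts. LM9 replicates 2 and 3 and LM1 were therefore far apart in Erbb2, Areg and Hbegf, and the 2 groups labelled as their knockouts were not separated in these genes.

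An interaction term tested whether the 2 lines differed in the change from parental to knockout-labelled libraries. None of the 7 genes passed with all libraries, nor did any gene by limma-voom (0%), with 4495 genes at an unadjusted p under 0.05, 1 gene called by edgeR and 70 by DESeq2. Without LM9 replicate 1, 3 of 7 passed beside a background of 57.2%. The rise of Erbb2 was smaller in the LM1 pair by -2.04 on the log2 scale (SE 0.14, adjusted p = 2.24e-09). Areg differed by 2.02 (SE 0.12, adjusted p = 6.76e-10), since it was higher in the knockout-labelled libraries of LM1 and lower in those of LM9. Hbegf differed by 1.74 (SE 0.06, adjusted p = 1.19e-12). For Tgfa and Erbb3 the interaction did not pass either way, at 0.85 (adjusted p = 0.264) and 0.63 (adjusted p = 0.185) without that library. Among the alternatives run, Erbb2, Areg and Hbegf passed this interaction test only without LM9 replicate 1, and over all of them the adjusted p ran up to 0.422 for Erbb2 and Hbegf and to 0.424 for Areg.

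Beyond the members, 56 genes of the pathway were read in the same fits. In the LM1 pair 46 passed (82.1%), 18 rising and 28 falling, and in the LM9 pair 47 passed (83.9%), 22 rising and 25 falling. Both shares are near the backgrounds of 81.2% and 82.3%, so the number of pathway genes that changed was not out of the ordinary in these libraries. With all libraries the medians were -0.31 and -0.05, beside 0.08 and 0.13 over all genes. Medians of these pathway genes without LM9 replicate 1 are not given here. With LM9 replicate 1 left out, 52 passed in the LM1 pair, 21 rising and 31 falling, and 53 in the LM9 pair, 28 rising and 25 falling, beside backgrounds of 88.6% and 88.9%. With an added requirement of an absolute log2 fold change above 1, 28 and 30 of the 56 passed, beside 55.0% and 57.5% of all genes, and 28 and 34 without that library, beside 55.4% and 59.8%. The counts per list below stand beside shares of all genes of 43.1% higher and 38.1% lower in the LM1 pair. In the LM9 pair these shares were 44.3% and 38.0%. Nothing is read from the number called in a single list. Where 3 values follow each other below, they are log2 fold changes in the LM1 pair, in the LM9 pair and in the LM9 pair without LM9 replicate 1, and the adjusted p-values are those of the first and the second.

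Of the other ligands and receptors of the family, Erbb4, Epgn and Nrg3 are not analysed here. Both neuregulins with more than traces fell. Nrg1, a ligand of ERBB3, was at 6.91 ± 0.693 CPM in LM1 and 2.14 ± 0.176 in the libraries labelled LM1KO, with changes of -1.69 (adjusted p = 0.000886) and -2.51 (adjusted p = 3.18e-05), the latter -2.93 without LM9 replicate 1. Nrg2, another ERBB3 and ERBB4 ligand, was at 10.2 ± 0.350 CPM in LM1, and 1 count was left in all libraries labelled LM1KO and 0 in those labelled LM9KO. The parental level of Nrg2 was 1189 times higher in the LM1 pair (counting interval 213 to 46997) and at least 81.1 times higher in the LM9 pair, against a floor of 3 counts per library. In LM9 it was at 10.997 CPM in replicate 1 and at 3.63 and 3.94 CPM in replicates 2 and 3, and without replicate 1 that bound was 49.6. In these cells Erbb3 and both of these ligands for it were thus lower in the knockout-labelled libraries. Egf itself had 2 to 16 counts in each of the 12 libraries and did not pass in either pair (adjusted p = 0.999 and 0.0576). In the LM9 pair Egf passed without LM9 replicate 1 (1.19, limma-voom adjusted p = 0.0323), without LM9KO replicate 1 (1.01, limma-voom adjusted p = 0.0475) and with library totals (1.23, limma-voom adjusted p = 0.0144), within a range of 0.0144 to 0.237 over all alternatives. Nrg4, an ERBB4 ligand, did not pass in the LM1 pair (adjusted p = 0.921) and fell by 1.14 in the LM9 pair (adjusted p = 0.0366), at 9 to 23 counts in the libraries of that pair. It changed by -1.51 without LM9 replicate 1 (limma-voom adjusted p = 0.00169). Exon bases are shared with genes on the opposite strand by Nrg4 (368), Nrg1 (482) and Egf (500 and 607). The handling of strand in the counts is not known. The Nrg4 call was lost without LM9 replicate 2 (-0.91) or 3 (-0.99), without LM9KO replicate 1 (-1.16), 2 (-1.27) or 3 (-0.97), with library totals (-0.80) and with the replicate number as a block (-1.10), with adjusted p from 0.00169 to 0.114 over all alternatives.

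Of 4 genes for the shedding of ligands, 3 fell in both pairs, and Adam10, a second sheddase gene, rose in the LM9 pair. Adam10 was named after its values were seen. In the LM9 pair it changed by 0.58 (adjusted p = 0.0219), and by 0.91 without LM9 replicate 1. In the LM1 pair it changed by -0.18 (adjusted p = 0.408), and all 4 genes passed as falling there without that library. ADAM17 is the main sheddase of Tgfa, Areg and Hbegf, and the inactive rhomboids Rhbdf1 and Rhbdf2 carry it to the cell surface. Rhbdf1 changed by -1.70, -1.84 and -1.84 (adjusted p = 1.02e-09 and 5.58e-10) and Rhbdf2 by -1.48, -2.14 and -2.38 (adjusted p = 7.57e-06 and 2.84e-07). Adam17 fell from 172 ± 5.25 to 86.9 ± 0.313 CPM in the LM1 pair, a change of -0.99 (adjusted p = 9.38e-05). In the LM9 pair Adam17 changed by -0.44 (adjusted p = 0.0212), and by -0.19 without LM9 replicate 1. The call was lost without any 1 of the libraries labelled LM9KO (-0.43 each), with library totals (-0.08) and in the fit of those 2 groups alone (-0.44), with adjusted p from 0.000296 to 0.704 over all alternatives.

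Of 7 genes that restrain the receptors, 2 rose and 4 fell in the LM1 pair, and 3 rose and 4 fell in the LM9 pair, the same numbers as without LM9 replicate 1. Cblc, a ubiquitin ligase for activated EGFR, fell from 352 to 391 counts in LM1 libraries to 0 to 3 in those labelled LM1KO, and from 371 to 396 to 0 to 2 in the LM9 pair. Lrig1, a membrane protein that promotes the breakdown of these receptors, fell from 611 ± 12.5 to 92.4 ± 2.65 CPM in the LM1 pair, with changes of -2.73, -2.81 and -2.85 (adjusted p = 7.34e-12 and 6.97e-12). Cblb, a second ligase of that family, changed by -1.30, -1.19 and -1.13 (adjusted p = 1.55e-08 and 3.85e-08). In contrast Rnf41, whose product Nrdp1 marks ERBB3 for degradation, rose from 30.1 ± 2.37 to 116 ± 4.33 CPM, with changes of 1.95, 2.08 and 2.24 (adjusted p = 7.03e-09 and 5.16e-09). Lrig3 rose by 0.56, 0.68 and 0.79 (adjusted p = 0.000964 and 0.000277). The restraints of the receptors thus moved in both directions.

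Of 17 adaptors and members of the RAS-MAPK relay, 6 rose and 9 fell in the LM1 pair, and 6 rose and 4 fell in the LM9 pair. These became 6 and 11 in the LM1 pair and 10 and 4 in the LM9 pair without LM9 replicate 1. The kinases of the relay moved apart. Map2k2, which encodes MEK2, rose from 54.8 ± 3.52 to 240.0 ± 6.43 CPM in the LM1 pair, with changes of 2.14, 1.92 and 1.89 (adjusted p = 7.23e-11 and 1.59e-10). Mapk3, which encodes its substrate ERK1, fell from 272 ± 9.33 to 52.9 ± 1.24 CPM, with changes of -2.36, -2.78 and -2.97 (adjusted p = 1.05e-08 and 2.62e-09). Hras rose by 1.73, 1.28 and 1.08 (adjusted p = 1.21e-07 and 1.42e-06), and so did Ptpn11, the gene of the phosphatase SHP2, by 1.33, 1.73 and 1.93 (adjusted p = 1.09e-06 and 1.26e-07). Gab2, a docking adaptor, changed by -1.90, -1.63 and -1.47 (adjusted p = 2.45e-08 and 1.1e-07).

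Of 15 feedback and output genes of the MAPK pathway, 4 rose and 8 fell in the LM1 pair, and 5 rose and 9 fell in the LM9 pair. The numbers that rose became 6 in each pair without LM9 replicate 1, and those that fell were as before. Dusp6, a phosphatase of ERK that ERK activity induces, fell from 172 ± 2.79 to 6.19 ± 0.270 CPM in the LM1 pair, with changes of -4.80, -4.97 and -5.01 (adjusted p = 2.93e-11 and 2.65e-11). Spry1, an inhibitor of the relay, changed by -3.22, -3.24 and -3.19 (adjusted p = 6.69e-11 and 7.15e-11), and Dusp4 by -1.45, -1.90 and -2.06 (adjusted p = 2.7e-07 and 2.49e-08). The early-response gene Egr1 went the other way, from 3.45 ± 0.350 to 51.8 ± 1.82 CPM, with changes of 3.91, 4.04 and 4.24 (adjusted p = 1.38e-10 and 1.79e-10). Fosl1, an AP-1 subunit, rose by 3.25, 2.37 and 2.00 (adjusted p = 8.9e-08 and 9.17e-07), and Dusp5 by 1.94, 1.43 and 1.12 (adjusted p = 1.73e-06 and 1.55e-05). Fosl1 shares 1163 exon bases with Ccdc85b on the opposite strand, Spry1 710 with Gm42922 and Dusp5 547 with AC137853.2. Genes that the same pathway is known to induce thus changed in opposite directions.

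Of 9 genes of the PI3K-AKT relay, 6 rose and 2 fell in the LM1 pair, and 7 rose and 2 fell in the LM9 pair. In each pair 7 rose and 2 fell without LM9 replicate 1. With all libraries, 81.2% and 82.3% of all genes passed in the 2 pairs. Pik3ca, the catalytic subunit p110alpha, was at 53.9 ± 2.03 CPM in LM1 and at 124 ± 3.92 in the libraries labelled LM1KO, with changes of 1.20, 2.49 and 3.14 (adjusted p = 0.00336 and 3.13e-05). In LM9 it split like Erbb2, with 53.6 CPM in replicate 1 and 14.8 and 14.9 CPM in replicates 2 and 3. How much of the Pik3ca count came from the transgene was not tested. Pik3cb, the p110beta subunit, rose by 1.63, 1.89 and 2.10 (adjusted p = 8.54e-08 and 3.79e-08). Pik3r3, a regulatory subunit, rose by 1.65, 2.56 and 2.98 (adjusted p = 7.9e-06 and 7.05e-07), and it shares 1289 exon bases with Gm49337 on the same strand. Akt2, a kinase of the relay, changed by -0.93, -1.04 and -1.08 (adjusted p = 4.99e-08 and 1.94e-08).

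**Figure D4:**
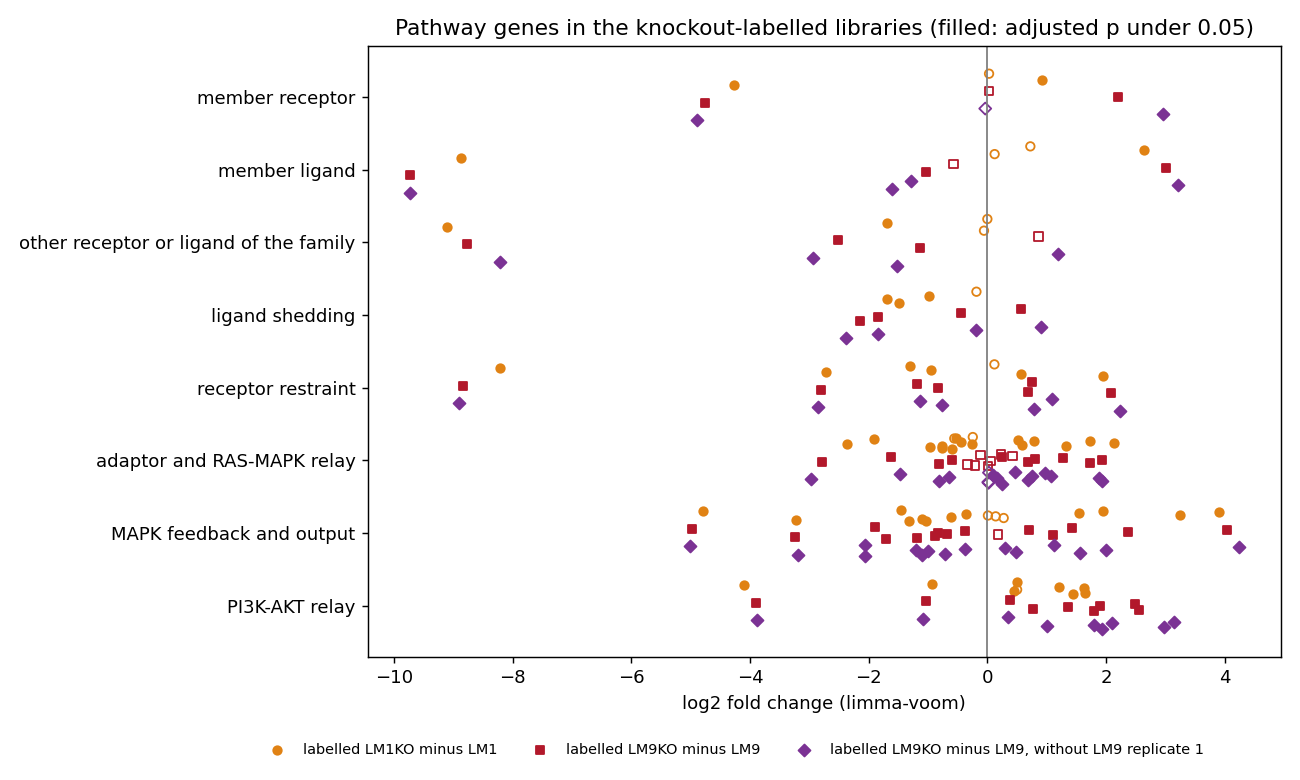
Log2 fold change (horizontal axis) of each receptor, ligand and pathway gene between knockout-labelled and parental libraries, by role, for LM1, for LM9 and for LM9 without replicate 1, with filled symbols for an adjusted p under 0.05. Most roles hold genes on both sides of 0, and the most negative values belong to Tgfa, Nrg2 and Cblc.

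The genes whose pattern over the 12 libraries was most like that of a member were found by the root mean square difference of their centred log2 CPM, among 10280 genes with a mean of at least 10 CPM. Nearest to Erbb2 were Ttc7 (0.0933) and Tmem140 (0.123), and nearest to Hbegf were Ccl5 (0.0818), a chemokine gene, and Fabp5 (0.101), which encodes a fatty acid binding protein. Nearest to Areg were Hspb1 (0.153), a small heat shock protein gene, and Ckb (0.171), the brain creatine kinase gene. These patterns include the split among the LM9 libraries. Nearest to Tgfa were Spint1 (0.404), a protease inhibitor gene of epithelia, and Wfdc2 (0.504), and nearest to Erbb3 were Ackr3 (0.316) and Trpm6 (0.325), at larger distances. For Egfr, which hardly varied, the nearest were Nup188 (0.0553) and Lrrc41 (0.0569), with correlations of only r = 0.582 and 0.545. The correlation was r = 0.997 for Tgfa with Spint1 and r = 0.991 for Erbb3 with Ackr3. A small distance thus did not mean a close correlation. All points share the same 12 libraries and their scaling.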

How the data were processed

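RNA-seq was performed by the authors on 12 tumoursphere libraries (stranded poly-A protocol, single-end reads). They aligned the reads with STAR to mm10 and counted read 5' ends over merged exons, gene by gene, with QuasR; versions and the handling of strand and of reads that map to several places are not given in the sources used here. The deposited values are whole-number counts per gene, 1 file per library, not normalised and not pooled. Each listed gene reached 8 counts or more in at least 3 libraries, so low genes had been removed. Names and coordinates are from GENCODE M21 (GRCm38, the same assembly as mm10), which matched 18268 of 18278 identifiers.

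The study's framework, limma-voom, was used on all 12 libraries with 1 mean per group, TMM factors, an offset of 0.5 and filterByExpr (minimum count 10, minimum total 15), which kept 18176 genes. Depth was 29249075 to 37162594 counts, and a floor of 3 counts corresponds to 0.0807 to 0.103 CPM of the unscaled total. The code was tested on simulated data. The software was limma 3.58.1, DESeq2 1.42.0 and edgeR 4.0.16 under R 4.3.3. Alternatives were DESeq2, the edgeR quasi-likelihood test, library totals, median-ratio factors, no count filter, a replicate block, only the groups compared, a size threshold and leaving out each library. The members, the lists of pathway genes and markers and the alternatives were chosen with earlier results of these data known. Pathway genes were named by rule: per list, up to 3 that rose and 3 that fell past the threshold in both lines by the largest mean change, with a group mean of at least 5 CPM, and every other family member of the list. Some genes that this rule selects are not reported here.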

Additional observations from a re-analysis of the deposited data

How the results depend on the processing

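In the 2 comparisons of knockout-labelled with parental libraries, the number of members called stayed within 1.5 times the reported 4 and 5 under all 20 alternatives, with ranges of 3 to 6 and 4 to 6 when single libraries were left out. For pathway genes these ranges were 45 to 52 and 43 to 53, and requiring an absolute log2 fold change above 1 left 28 and 30, by its construction, beside 55.0% and 57.5% of all genes. Over all genes, leaving out single libraries gave 14171 to 16161 and 14391 to 16219 called in the 2 pairs. Between LM1 and LM9, DESeq2 called 2 members and 26 pathway genes, beside 5772 of all 17435 genes with an adjusted p. Library totals called 2 and 29 there, beside 5226 of all 18176 genes. The cause was not tested. Leaving out single libraries gave 0 to 3 members and 0 to 47 pathway genes there, and 0 to 3 and 0 to 43 for the interaction, the highest values without LM9 replicate 1. Without that library 65.7% of all genes passed between LM1 and LM9 and 57.2% in the interaction.

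Among the members and the named pathway genes, the directions that reversed were of estimates that did not pass the test with all libraries. In the LM1 pair, Egf went to 0.019 with edgeR, 0.045 with DESeq2, 0.024 with median-ratio factors, 0.22 with library totals and 0.0052 without a count filter, with -0.19 to 0.23 when single libraries were left out, and Nrg4 went to 0.17 with library totals, with -0.57 to 0.32 when single libraries were left out. With library totals, Tgfa became 0.087 in LM1 against LM9 and Egfr -0.12 in the interaction, and Areg became -0.00041 between the knockout-labelled groups fitted alone. Leaving out single libraries gave, for LM1 against LM9, -0.019 to 0.095 for Egfr, -0.053 to 0.18 for Erbb3 and -0.63 to 0.73 for Btc. Between the knockout-labelled groups it gave -0.0039 to 0.081 for Erbb2, -0.065 to 0.073 for Areg and -0.0100 to 0.043 for Hbegf, and in the interaction -0.047 to 0.068 for Egfr and -0.98 to 0.39 for Btc. For Egfr in the LM9 pair it gave -0.036 to 0.078.

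The replicate numbers did not pair the samples: libraries with the same number deviated from their group means with correlations of -0.0587 to 0.025. With the replicate number as a block, 4 and 5 members and 46 and 45 pathway genes were called in the 2 pairs, 0 in the other comparisons, and the call of Nrg4 in the LM9 pair was lost, at -1.10 (limma-voom adjusted p = 0.0504). Of all 18176 genes, 14599 and 14839 were called under this block in the 2 pairs, and 0 in the other comparisons.

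Btc and Tgfa rest on as few as 1 count per library, which limits the precision of their ratios.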
